A study of Drosophila melanogaster with 24 samples.

Results

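The cytosolic ribosomal protein genes of *Drosophila melanogaster* were followed through the first 6 h of embryogenesis, in embryos from *brat* mutant females and in wild-type embryos. They were taken as the genes whose symbol begins with RpL or RpS followed by a digit or the letter P, which gave 84 genes (49 of the large and 35 of the small ribosomal subunit, on 101 of the 17769 array rows with values) of 14005 gene symbols. Of these, 78 (46 large, 32 small) exceeded the mean of all rows in 1 or more groups and were tested, among 5779 tested genes in all. The symbol rule leaves out ribosomal proteins that carry other names, such as *sta* and *oho23B*, which are described separately. Rows of 1 gene were averaged, and 71 of the 84 genes had a single row.

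*brat* encodes BRAT, an RNA-binding protein of the TRIM-NHL family, and the arrays were made to compare mRNA levels in embryos with and without its maternal function. Mutant embryos came from females that carried *bratfs1* over the deficiency *Df(2L)TE37C-7*, and control embryos came from the *w1118* strain. Total RNA of whole embryos was collected in windows of 0–1.5, 1.5–3, 3–4.5 and 4.5–6 h post-egglaying. Each of the 8 combinations of genotype and time had 3 biological replicates, which gave 24 samples. Values are normalized log2 intensities. *brat* mutant embryos are referred to by their mothers' genotype. 1 mutant combination was compared with 1 control strain, so that an effect of *brat*, of other genes in the deficiency and of strain background cannot be told apart. *brat* mRNA itself was still measured in *brat* mutant embryos, with mean log2 levels of 13.29 to 14.23 over the 4 time points against 13.72 to 14.31 in wild-type embryos, and was lower at 0–1.5 h alone (log2 difference −0.67, adjusted p = 0.0469). Replicates correlated with r of 0.927 to 0.968 across rows. Cy3 was the dye of replicates 1 and 3 of the *brat* mutant embryos and of replicate 2 of the wild-type embryos, and Cy5 that of the rest.

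Each ribosome holds 1 copy of nearly every ribosomal protein, and the large and small subunits are assembled with the ribosomal RNAs in the nucleolus. The mother loads the egg with ribosomes and with ribosomal protein mRNAs, and the embryo starts to transcribe its own genes during the maternal-to-zygotic transition (MZT), when many other maternal mRNAs are degraded. Many ribosomal protein genes of the fly are essential and haploinsufficient, and partial loss gives the Minute phenotype of slow growth and thin bristles. Some have a duplicate copy that is used mainly in testis or ovary.

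Markers of embryonic stages followed the order of the labelled times in both genotypes, and differed between the genotypes. All 6 maternal marker mRNAs were expressed at 0–1.5 h in both genotypes. Of 10 zygotic blastoderm genes, 4 were above the array mean in *brat* mutant embryos at 0–1.5 h, against 0 in wild-type embryos, and their mean log2 level was 9.52 (samples 9.15 to 9.72) against 8.86 (8.75 to 8.95). At 1.5–3 h the blastoderm genes were lower in *brat* mutant embryos (11.41 against 11.79, samples not overlapping), as at 3–4.5 h (10.88 against 11.30) and 4.5–6 h (10.20 against 10.69). The 6 maternal mRNAs were higher in *brat* mutant embryos at 1.5–3 h (11.65 against 11.43), 3–4.5 h (10.73 against 10.20) and 4.5–6 h (10.72 against 10.20). The 8 later embryo genes were higher in *brat* mutant embryos at 0–1.5 h (8.80 against 8.38, none above the array mean) and at 1.5–3 h (9.90 against 9.31). They were lower in *brat* mutant embryos at 3–4.5 h (10.46 against 10.91, samples overlapping) and at 4.5–6 h (10.80 against 11.21, not overlapping). These marker levels are given as measured means without a test, and their part in the levels of the ribosomal protein genes was not tested. None of 11 eggshell genes and 3 yolk protein genes was expressed in any group. Fewer cells of a type and less RNA per cell cannot be told apart in such samples. Quantile normalization brings the samples to similar distributions of values, so each level is relative to the other transcripts of its sample. The deposited distributions were close but not identical, with sample medians over all rows of 8.70 to 8.83.

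Ribosomal protein mRNAs were abundant at all times and in both genotypes, and their mean level was lowest at the first time point in both. Averaged over the 78 genes, the log2 level in *brat* mutant embryos was 13.56 ± 0.14 at 0–1.5 h, 13.83 ± 0.10 at 1.5–3 h, 13.88 ± 0.03 at 3–4.5 h and 13.90 ± 0.10 at 4.5–6 h (SD, n = 3 each). In wild-type embryos the same mean was 13.51 ± 0.09, 13.85 ± 0.03, 13.93 ± 0.05 and 13.92 ± 0.07 (SD, n = 3 each). The 2 genotypes lay within 0.05 of each other at every time point, less than the spread between *brat* mutant replicates at 3 of the 4. The sample that stood highest within its group was replicate 3 of the *brat* mutant embryos at 0–1.5 h, at 13.72 against 13.47 and 13.49 for the other replicates. Replicate 3 had the highest mean in all 8 groups, and replicate 1 the lowest in all 4 groups of *brat* mutant embryos. The large-subunit mean and the small-subunit mean were both lowest at 0–1.5 h in each genotype; a difference between the subunits was not tested.

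**Figure D1:**
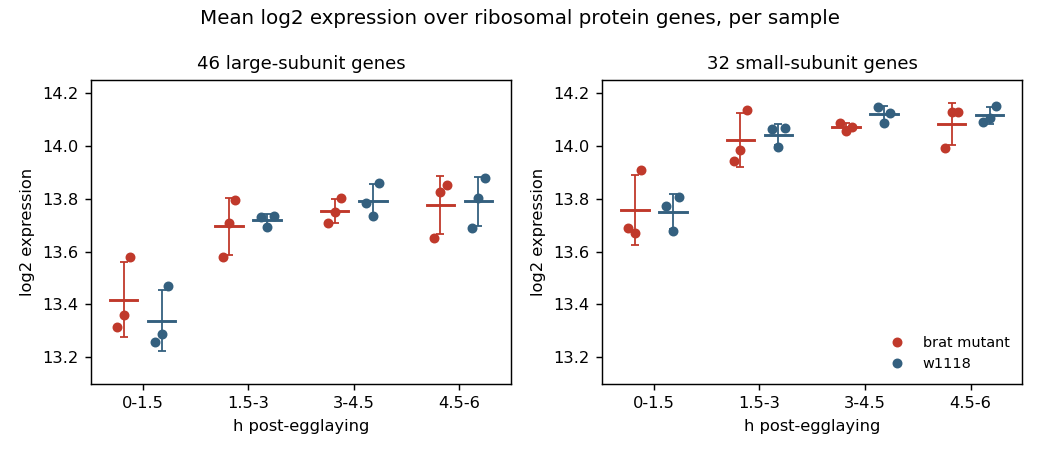
Mean log2 expression over the 46 large-subunit genes (left) and the 32 small-subunit genes (right) in each sample, against h post-egglaying; points are samples, bars the mean and SD of 3 replicates, with *brat* mutant embryos left of *w1118* embryos. In both panels all samples at 0–1.5 h lie below those of the same genotype at the later times, and the genotypes overlap or meet at every time point.

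Single genes varied little over the 24 samples. The SD of a ribosomal protein gene over all samples ranged from 0.11 to 0.51 with a median of 0.24, against a median of 0.53 over all 5779 tested genes. The mean of the ribosomal protein genes lay above the median tested gene in every sample, and genes of like brightness were not compared. The most even were *RpS3A*, *RpS25* and *RpL7*, and the most variable were *RpL34b*, *RpL34a* and *RpS5a*. *RpS3A*, of the small subunit, stayed between 14.30 and 14.79 in every sample. *RpL34b*, of the large subunit, spanned 11.59 to 13.52.

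Between 0–1.5 h and 1.5–3 h, some ribosomal protein mRNAs rose in each genotype and none was called as falling, while most did not pass the test. In *brat* mutant embryos 9 of 78 genes (11.5%) rose and 0 fell at a false discovery rate of 5%, beside 14% and 20.9% of all tested genes, so that the share rising lay near that of all genes, with a median log2 change of 0.26 against −0.02 over all tested genes. In wild-type embryos 27 rose and 0 fell, beside 19.4% and 25.8% of all tested genes, with a median of 0.31 against 0.06. These counts depended on single samples: the 9 became 2 without replicate 3 at 1.5–3 h, 3 or 2 without replicate 1 or 2 at 0–1.5 h and 16 without replicate 3 at 0–1.5 h, and the 27 became 12 without replicate 2 at 0–1.5 h and 16 or 15 without replicate 1 or 3 at 1.5–3 h. With each pair of time points fitted by itself they were 0 and 13, and with each sample centred on its median 32 and 50. The shares of all tested genes in these other fits are not given here. The difference between the genotypes in this step passed the threshold for 0 of 78 genes (limma, 0 also at an unadjusted p under 0.05), beside 0.692% of all genes in the positive and 0.779% in the negative direction. All p-values given here are from limma with Benjamini-Hochberg adjustment over all tested genes unless called unadjusted.

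By rule, the 3 largest rises among the called genes of each genotype in this first step are named, and the lists had no gene in common. Rises that were not called were left out, whatever their size. A gene named for a single genotype is not shown to differ between the genotypes. For *brat* mutant embryos the named genes were *RpL8*, whose product lies at the peptidyl transferase centre, *RpL37a* and *RpS5a*. *RpL8* measured 13.24, 12.94 and 13.71 in *brat* mutant embryos at 0–1.5 h and 13.71, 14.05 and 14.39 at 1.5–3 h, a rise of 0.75 (SE 0.20, adjusted p = 0.00496). The replicates of the 2 time points met at 13.71. *RpL37a* rose by 0.52 (adjusted p = 0.0172) and *RpS5a* by 0.50 (adjusted p = 0.0198), and each of these 2 calls was lost in 5 of 16 other fits, among them those without replicate 3 at 1.5–3 h or replicate 2 at 0–1.5 h. In wild-type embryos the mean level also went up in this step, from 13.24 to 13.83 for *RpL37a* and from 12.84 to 13.45 for *RpS5a*.

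In wild-type embryos the genes named by the same rule were 3 others, all of the large subunit, *RpL13*, *RpL34b* and *RpL29*. *RpL13* measured 12.07, 12.41 and 12.50 at 0–1.5 h and 13.03, 13.42 and 13.37 at 1.5–3 h, without overlap, a rise of 0.94 (SE 0.21, adjusted p = 0.000954). In *brat* mutant embryos it measured 12.29, 12.72 and 13.09 and then 12.91, 13.25 and 13.14, and the change of 0.40 (adjusted p = 0.146) did not pass the test. The difference between the genotypes in this change of *RpL13* did not pass either, also at an unadjusted p under 0.05 (limma). *RpL34b* rose by 0.80 (adjusted p = 0.0331) and *RpL29* by 0.74 (adjusted p = 0.0131) in wild-type embryos. The call for *RpL34b* was lost in 5 of 16 other fits, among them those without replicate 1 or 2 at 0–1.5 h or replicate 2 or 3 at 1.5–3 h. Of the 3 proteins of the ribosomal stalk, which binds the elongation factors, looked up after the values were seen, *RpLP1* rose by 0.71 (adjusted p = 0.00264) and *RpLP2* by 0.65 (adjusted p = 0.0234) in wild-type embryos, while the change of 0.40 of *RpLP0* (adjusted p = 0.151) did not pass.

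After 3 h the levels changed little. From 1.5–3 h to 3–4.5 h, 0 of 78 genes rose or fell in *brat* mutant embryos (limma, 1 at an unadjusted p under 0.05), beside 6.06% of all tested genes that rose and 9.27% that fell. In wild-type embryos 1 gene rose and 0 fell, beside 21.9% and 25.1%. That gene was *RpL35*, whose product sits near the exit of the nascent chain tunnel: it measured 14.30, 14.18 and 14.18 at 1.5–3 h and 14.71, 14.55 and 14.68 at 3–4.5 h (0.42, SE 0.14, adjusted p = 0.0188). In *brat* mutant embryos it measured 14.39, 14.43 and 14.45 and then 14.44, 14.89 and 14.46. The call for *RpL35* was lost when wild-type replicate 1 or 3 at 3–4.5 h, or replicate 2 or 3 at 1.5–3 h, was left out.

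From 3–4.5 h to 4.5–6 h, 0 of 78 genes were called in either genotype (limma, 0 at an unadjusted p under 0.05 in *brat* mutant and 3 in wild-type embryos). The background was 0.536% rising and 0.64% falling in *brat* mutant embryos, against 5.92% and 4.24% in wild-type embryos. The median change of the 78 genes was 0.00 in both genotypes.

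**Figure D2:**
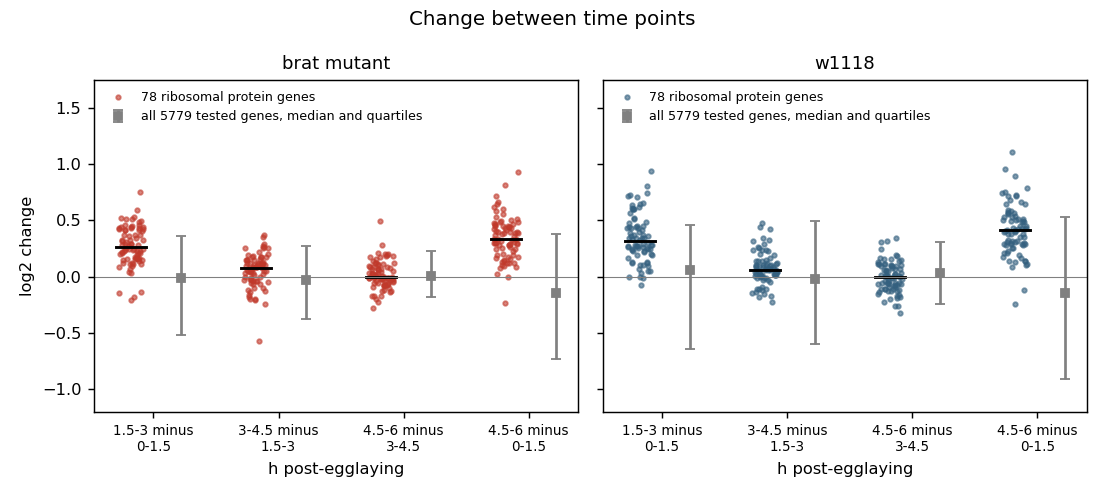
Log2 change of the 78 tested ribosomal protein genes (points, black line at their median) between successive time points and between the last and the first, in *brat* mutant embryos (left) and *w1118* embryos (right), beside the median and quartiles of all 5779 tested genes (grey). The median of the ribosomal protein genes lies at 0.26 and 0.31 for the first step and near 0 for the last step.

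Over the whole course, from 0–1.5 h to 4.5–6 h, 26 of 78 genes rose and 0 fell in *brat* mutant embryos (14 large, 12 small), beside 20.1% and 29.2% of all tested genes. In wild-type embryos 45 rose and 0 fell (30 large, 15 small), beside 25.6% and 34.9%. The median log2 change was 0.34 in *brat* mutant and 0.41 in wild-type embryos, against −0.15 over all tested genes in both. The estimate was above 0 for 77 genes in *brat* mutant and 76 in wild-type embryos, and for 76 genes in both. Of the 26 genes called in *brat* mutant embryos 20 were also called in wild-type embryos, which is 76.9% of the first list and 44.4% of the second. Of all 78 genes 57.7% were called in wild-type embryos. The overlap of calls over all tested genes is not given, so the shared calls have no background to be set against. The difference of the rise between the genotypes passed the threshold for 0 of 78 genes (limma, 1 at an unadjusted p under 0.05), beside 3.22% of all genes positive and 4.4% negative.

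These counts were lower when certain single samples were left out. Without *brat* mutant replicate 2 or 3 at 4.5–6 h the 26 became 12 or 14, and without replicate 1 or 2 at 0–1.5 h 12 and 12. Without wild-type replicate 3 at 4.5–6 h the 45 became 24, and without replicate 1 or 2 at 0–1.5 h 27 and 28. No gene of the set was called as falling under any of these. The shares of all tested genes with a sample left out are not given, so these counts cannot be set against those of all genes.

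*RpS5a*, which encodes a small-subunit protein near the mRNA exit channel, rose in both genotypes. It measured 13.26, 12.98 and 13.24 in *brat* mutant embryos at 0–1.5 h, and 14.06, 14.07 and 14.13 at 4.5–6 h. In wild-type embryos it measured 12.60, 13.04 and 12.88, and then 13.85, 13.72 and 13.82. The groups did not overlap in either genotype, and the rise was 0.93 (1.90-fold, SE 0.16, adjusted p = 6.33e-05) in *brat* mutant and 0.96 (1.94-fold, SE 0.16, adjusted p = 2.65e-05) in wild-type embryos.

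*RpL34b* had the largest rise in wild-type embryos and the second largest in *brat* mutant embryos. It measured 11.81, 12.13 and 12.80 in *brat* mutant embryos at 0–1.5 h and 12.72, 12.94 and 13.52 at 4.5–6 h, where the groups overlapped. In wild-type embryos it measured 11.59, 12.17 and 12.57 and then 12.84, 13.36 and 13.45, without overlap. The rise was 0.82 (SE 0.30, adjusted p = 0.028) in *brat* mutant and 1.11 (SE 0.30, adjusted p = 0.00314) in wild-type embryos. In both genotypes replicate 3 was the highest at 0–1.5 h and at 4.5–6 h. The call in *brat* mutant embryos was lost without replicate 3 at 4.5–6 h or replicate 1 or 2 at 0–1.5 h.

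Next came *RpL31* in *brat* mutant embryos, up by 0.71 (SE 0.18, adjusted p = 0.00257), and *RpL29* in wild-type embryos, up by 0.89 (SE 0.23, adjusted p = 0.00235), both of the large subunit. *RpL29* rose by 0.66 (adjusted p = 0.0228) in *brat* mutant and *RpL31* by 0.56 (adjusted p = 0.0108) in wild-type embryos. *RpL3*, whose product lies at the peptidyl transferase centre, rose by 0.56 (adjusted p = 0.0017) in *brat* mutant and 0.72 (adjusted p = 0.000102) in wild-type embryos. The stalk gene *RpLP1* rose by 0.64 (adjusted p = 0.00527) in *brat* mutant and 0.79 (adjusted p = 0.000704) in wild-type embryos. *RpL3* and *RpLP1* lie outside the naming rule and were picked for their place in the ribosome after their values were seen.

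A smaller number of genes showed no rise that passed the test in either genotype. *RpL40*, which is made as a fusion with ubiquitin, measured 14.42, 14.19 and 14.61 in *brat* mutant embryos at 0–1.5 h and 14.43, 14.50 and 14.58 at 4.5–6 h, a difference of 0.10 (95% confidence interval −0.25 to 0.45). In wild-type embryos the difference of *RpL40* was 0.08 (−0.27 to 0.43). *RpL41*, a peptide of very few residues, differed by 0.02 (SE 0.19) in *brat* mutant and −0.12 (SE 0.19) in wild-type embryos. *RpS5b* was the one gene with an estimate below 0 in both genotypes. These genes were also chosen after their values were seen.

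**Figure D3:**
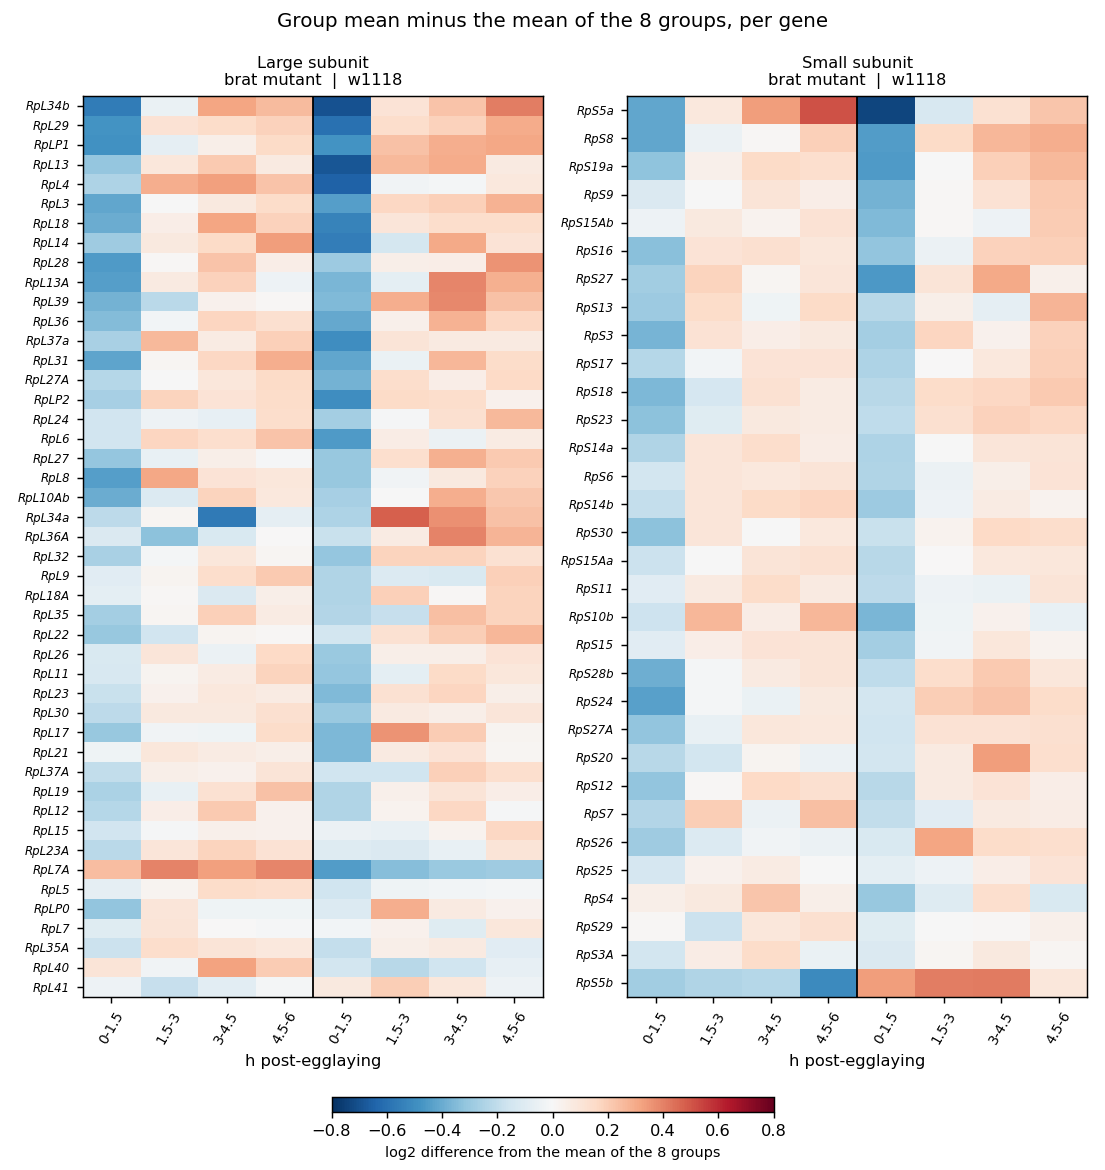
Mean log2 level of each of the 78 tested ribosomal protein genes in the 8 groups, minus the mean of the 8 groups; columns are h post-egglaying, *brat* mutant embryos left of *w1118* embryos, and genes are ordered by their change in *w1118* embryos. The first column of each genotype is below the later ones for most genes, *RpL7A* is higher and *RpS5b* lower in *brat* mutant embryos in all columns, and *RpL34a* is low in *brat* mutant embryos at 3–4.5 h.

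The size of the rise went with the brightness of the gene on the array. In *brat* mutant embryos the median change from first to last time point was 0.43 in the 26 dimmest of the 78 genes (mean levels 10.94 to 13.67), 0.38 in the middle 26 and 0.25 in the 26 brightest (14.30 to 15.17). In wild-type embryos these medians were 0.55, 0.41 and 0.27, and 19, 17 and 9 of the 26 genes were called. The highest value of any row in any sample was 15.77, so the brightest genes lay near the top of the scale. The part of this in the differences between genes was not tested.

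*RpL32*, the large-subunit gene whose mRNA served as the reference of the study's RT-qPCR, moved like the rest. It measured 13.35, 13.48 and 13.85 in *brat* mutant embryos at 0–1.5 h, 13.65, 13.81 and 13.94 at 1.5–3 h, 13.91, 13.88 and 13.94 at 3–4.5 h, and 13.88, 13.81 and 13.81 at 4.5–6 h. In wild-type embryos it measured 13.64, 13.22 and 13.66, then 14.14, 13.87 and 13.97, then 14.07, 13.76 and 14.16, and last 13.95, 13.89 and 13.98. In both genotypes the first time point was the lowest on average, and in *brat* mutant embryos its replicate 3 lay among the later values.

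From the first to the last time point *RpL32* changed by 0.28 in *brat* mutant embryos (95% confidence interval −0.06 to 0.61, adjusted p = 0.157) and rose by 0.43 in wild-type embryos (0.10 to 0.76, adjusted p = 0.0256). The wild-type call was lost in 6 of 16 other fits, among them those without replicate 1 or 3 at 4.5–6 h or replicate 2 at 0–1.5 h, and without the last of these the change was 0.29 (adjusted p = 0.159). The genotypes differed by 0.05 (−0.40 to 0.49) at 0–1.5 h, −0.19 (−0.62 to 0.24) at 1.5–3 h, −0.09 (−0.52 to 0.34) at 3–4.5 h and −0.11 (−0.46 to 0.25) at 4.5–6 h. None of the 4 passed the test, and averaged over the time points the difference of *RpL32* was −0.09 (−0.25 to 0.08).

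The genotypes were compared within each time window, 3 samples against 3. At 0–1.5 h 1 of 78 genes was higher and 0 lower in *brat* mutant embryos, beside 4.98% and 3.95% of all tested genes. At 1.5–3 h 0 were higher or lower, beside 4.17% and 3.56%, and at 3–4.5 h 0, beside 2.18% and 1.47%. At 4.5–6 h 1 was higher and 0 lower, beside 6.33% and 5.71%. At an unadjusted p under 0.05 limma gave 2, 2, 4 and 2 genes at the 4 time points. The gene called at the first and the last time point was *RpL7A* both times.

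The median genotype difference of the 78 genes was 0.03 at 0–1.5 h, 0.01 at 1.5–3 h, −0.03 at 3–4.5 h and −0.04 at 4.5–6 h, against −0.03, −0.04, −0.05 and −0.09 over all tested genes. The estimates were precise enough to bound most genes. At 0–1.5 h the 95% confidence interval of 76 of 78 genes lay within 2-fold in either direction, and of 48 within 1.5-fold. At 1.5–3, 3–4.5 and 4.5–6 h these counts were 74 and 37, 75 and 49, and 77 and 58. The change in genotype difference relative to 0–1.5 h passed for 0 of 78 genes at 3–4.5 h (limma, 2 at an unadjusted p under 0.05), beside 2.51% of all genes positive and 3.75% negative.

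**Figure D4:**
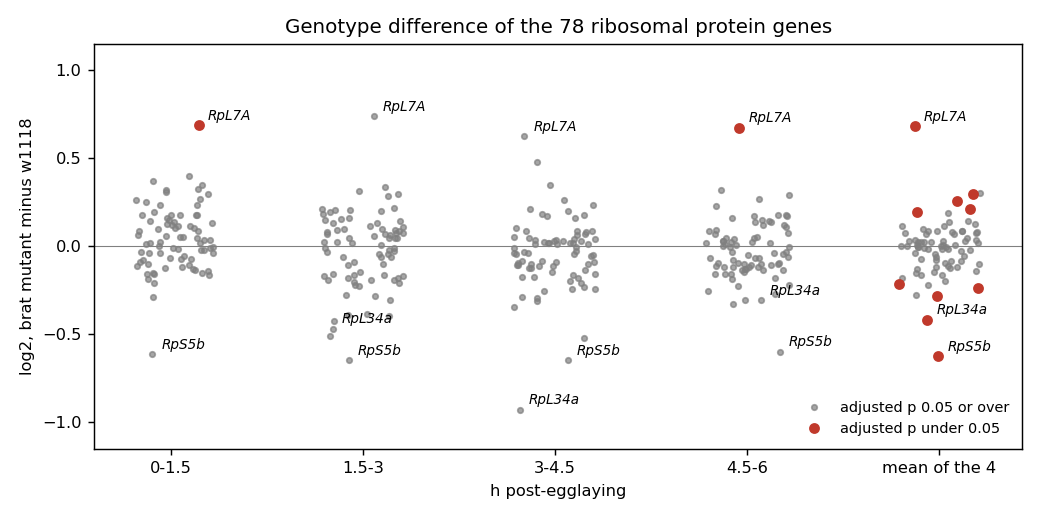
Log2 difference, *brat* mutant minus *w1118*, of each of the 78 tested ribosomal protein genes at each time point and for the mean of the 4; red points have an adjusted p under 0.05. *RpL7A* lies between 0.62 and 0.74 and *RpS5b* between −0.65 and −0.60 at every time point, apart from the cloud around 0.

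*RpL7A*, of the large subunit, was higher in *brat* mutant embryos throughout. At 0–1.5 h it measured 15.02, 14.98 and 15.08 in *brat* mutant embryos, against 14.17, 14.63 and 14.21 in wild-type embryos. At 1.5–3 h the values were 15.07, 15.12 and 15.34 against 14.26, 14.70 and 14.36, at 3–4.5 h 15.19, 15.00 and 15.13 against 14.20, 14.75 and 14.50, and at 4.5–6 h 15.19, 15.18 and 15.14 against 14.42, 14.71 and 14.36. The genotypes did not overlap at any time point, and in wild-type embryos replicate 2 was the highest each time.

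The difference of *RpL7A* was 0.69 (1.61-fold, SE 0.18, adjusted p = 0.0417) at 0–1.5 h, 0.74 (SE 0.20, adjusted p = 0.0605) at 1.5–3 h, 0.62 (SE 0.20, adjusted p = 0.122) at 3–4.5 h and 0.67 (SE 0.17, adjusted p = 0.0382) at 4.5–6 h. Wild-type replicate 2 was the Cy3-labelled one. Within Cy3 the genotype difference was 0.41 to 0.50 over the 4 time points with a mean of 0.45, and within Cy5 0.65 to 0.81 with a mean of 0.76. With dye as a covariate the differences at 0–1.5 and 4.5–6 h were 0.60 (adjusted p = 0.0831) and 0.62 (adjusted p = 0.0771), so that neither passed. Leaving out any of 5 of the 6 samples of either time point also ended its call.

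*RpS5a* and *RpS5b* encode versions of the same small-subunit protein, and *RpS5b* is known as the copy used most in the ovary. *RpS5b* was lower in *brat* mutant embryos. It measured 12.83, 12.69 and 12.96 in *brat* mutant embryos against 13.62, 13.22 and 13.48 in wild-type embryos at 0–1.5 h, 12.62, 12.93 and 13.04 against 13.58, 13.51 and 13.44 at 1.5–3 h, 12.86, 12.94 and 12.82 against 13.56, 13.46 and 13.54 at 3–4.5 h, and 12.55, 12.72 and 12.52 against 13.04, 13.33 and 13.22 at 4.5–6 h. The genotypes did not overlap at any time point.

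The difference of *RpS5b* was −0.61 (adjusted p = 0.0604), −0.65 (adjusted p = 0.0784), −0.65 (adjusted p = 0.0751) and −0.60 (adjusted p = 0.0534), in the order of time, which missed the threshold each time with the 6 samples of a time point. In 1 fit of all 24 samples the same differences passed each time, with adjusted p of 0.0106, 0.0051, 0.00559 and 0.00871. Within Cy3 the difference of *RpS5b* was −0.79 to −0.32 over the 4 time points with a mean of −0.60, and within Cy5 −0.86 to −0.41 with a mean of −0.61. Within each dye, 1 genotype had a single sample per time point. *RpS5a* differed by 0.32 (adjusted p = 0.313), 0.21 (adjusted p = 0.579), 0.21 (adjusted p = 0.514) and 0.29 (adjusted p = 0.248). The 5 germ cell marker genes were also lower in *brat* mutant embryos at 0–1.5 h, with a mean log2 level of 12.41 (samples 12.30 to 12.53) against 12.90 (12.84 to 12.94) in wild-type embryos, and at 1.5–3 h with 10.48 against 11.38. Their part in the level of *RpS5b* was not tested.

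The balance of the pair was tested directly, on the log2 difference *RpS5a* minus *RpS5b* in each sample, in 1 fit of all 24 samples. In *brat* mutant embryos it exceeded that of wild-type embryos by 0.93 (SE 0.20, adjusted p = 0.0035) at 0–1.5 h, 0.86 (adjusted p = 0.00559) at 1.5–3 h, 0.86 (adjusted p = 0.00584) at 3–4.5 h and 0.89 (adjusted p = 0.00431) at 4.5–6 h. It also shifted with time, by 1.16 (adjusted p = 5.26e-05) in *brat* mutant and 1.20 (adjusted p = 2.01e-05) in wild-type embryos, since *RpS5a* rose while the estimate for *RpS5b* was −0.23 (−0.54 to 0.07) and −0.25 (−0.55 to 0.06). Each genotype difference kept its call in all 10 other fits tried and each shift with time in all 11.

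**Figure D5:**
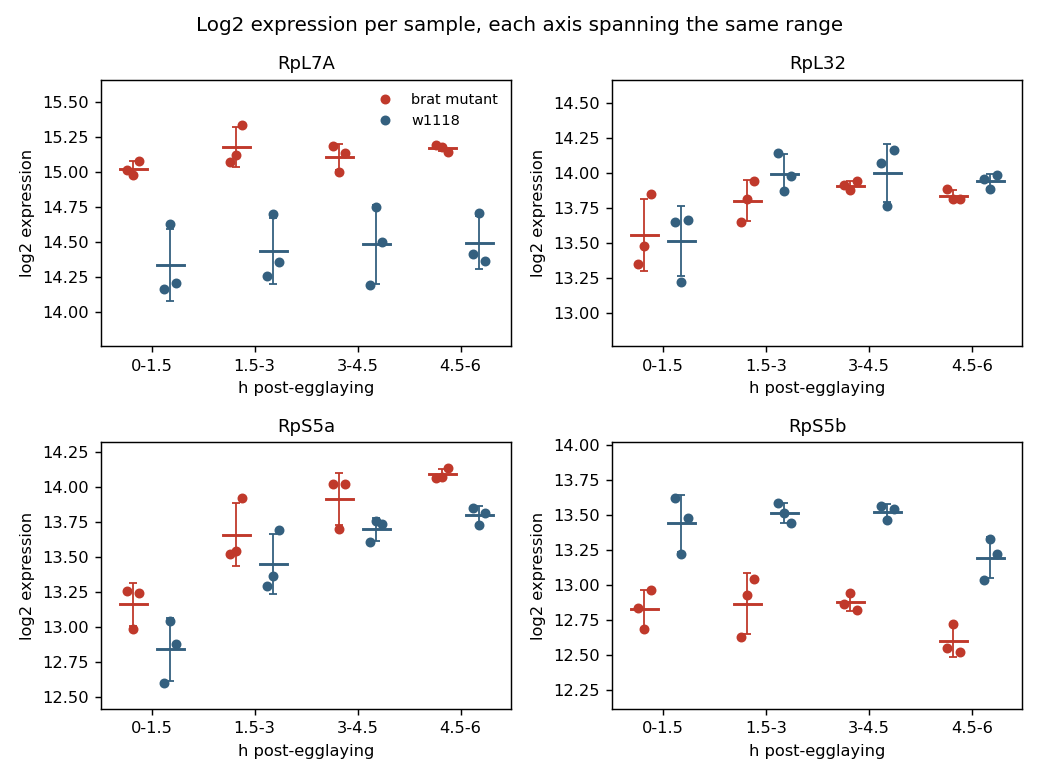
Log2 expression of *RpL7A*, *RpL32*, *RpS5a* and *RpS5b* in each sample against h post-egglaying, with the mean and SD of 3 replicates and *brat* mutant embryos left of *w1118* embryos. *RpL7A* is higher and *RpS5b* lower in *brat* mutant embryos without overlap at all 4 time points, *RpS5a* rises in both genotypes, and the genotypes of *RpL32* overlap at the first 3 time points and lie close to each other, *brat* mutant embryos below, at the last.

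Because the differences of *RpL7A* and *RpS5b* were alike at all times, the mean genotype difference over the 4 time points was tested as well, in 1 fit of all 24 samples, chosen after the values were seen. In *brat* mutant embryos 5 of 78 genes were higher and 5 lower, which is 6.41% each, beside 16.6% and 19.6% of all tested genes. This fit takes the 12 samples of a genotype as independent, although samples with the same replicate number deviated together across time. When the 4 samples of a replicate number were averaged first and 3 were compared with 3, 1 gene was higher (*RpL7A*, adjusted p = 0.00751) and 1 lower (*RpS5b*, adjusted p = 0.00332), beside 10.5% and 10.7% of all tested genes. In the fit of all 24 samples, large and small subunit genes were both among the calls, 2 and 3 of those higher and 2 and 3 of those lower. In that same fit the median over the 78 genes was 0.00 against −0.04 over all tested genes. Its 95% confidence interval lay within 1.5-fold for 75 genes and within 2-fold for all 78.

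The 8 calls lost on averaging had smaller differences than *RpL7A* (0.68, SE 0.08, adjusted p = 3.46e-06) and *RpS5b* (−0.63, SE 0.07, adjusted p = 1.58e-06). In the fit of all 24 samples, also higher in *brat* mutant embryos were *RpL40* (0.30, adjusted p = 0.00928), *RpS5a* (0.26, adjusted p = 0.0162), *RpS10b* (0.21, adjusted p = 0.0462) and *RpS4* (0.20, adjusted p = 0.0349). Lower were also *RpL34a* (−0.42, adjusted p = 0.0179), *RpL36A* (−0.28, adjusted p = 0.0201), *RpS26* (−0.24, adjusted p = 0.0173), whose product lies at the mRNA exit channel, and *RpS24* (−0.21, adjusted p = 0.0349). *RpL7A* and *RpS5b* kept their calls in all 33 other fits tried, with dye as a covariate among them. *RpS10b* lost its call in 22 of them, *RpS24* in 17 and *RpS4* in 15. With each sample centred on the median of the tested genes, 8 were higher and 2 lower.

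*RpL34a* was the gene with the largest difference at any single time point. At 3–4.5 h it measured 11.44, 10.35 and 11.19 in *brat* mutant embryos against 12.03, 11.81 and 11.93 in wild-type embryos, without overlap, and replicate 2 of the *brat* mutant embryos lay far below the others. The difference was −0.93 (95% confidence interval −1.59 to −0.26, adjusted p = 0.109). At 0–1.5 h the difference of *RpL34a* was 0.03, and it was −0.47 at 1.5–3 h and −0.31 at 4.5–6 h. Against the first time point the difference at 3–4.5 h was −0.96 (adjusted p = 0.14). *RpL34a* minus *RpL34b* shifted from first to last time point by −0.68 (adjusted p = 0.214) in *brat* mutant and −0.62 (adjusted p = 0.229) in wild-type embryos, so that a difference between these copies was not shown. With same-numbered samples of a genotype as a block the shift in *brat* mutant embryos passed (adjusted p = 0.0483).

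Among the other duplicated genes were pairs with 1 copy below the expression threshold and pairs with both above it. 6 copies were not above the mean of all rows in any group, namely *RpL10Aa*, *RpL22-like*, *RpL37b*, *RpS10a*, *RpS19b* and *RpS28a*, and no sample value of these exceeded 8.97, where the mean of all rows was 9.56. Their partners *RpL10Ab*, *RpL22*, *RpL37a*, *RpS10b*, *RpS19a* and *RpS28b* were all expressed and tested. *RpS14a* and *RpS14b* are near-identical, and their values never differed by more than 0.43 in a sample, so that the probes may not tell them apart. *RpS15Aa* minus *RpS15Ab* changed by 0.14 (adjusted p = 0.465) in *brat* mutant and −0.24 (adjusted p = 0.16) in wild-type embryos over the course.

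*RpL30* was the ribosomal protein gene nearest to *brat* in the RefSeq order of protein-coding genes, with 31 genes between them, and the next nearest was *RpS26*, with 106. *RpL30* measured 13.57, 13.56 and 13.67 in *brat* mutant embryos at 0–1.5 h, against 13.86, 13.28 and 13.41 in wild-type embryos, where the groups overlapped. Its genotype difference was 0.09 (−0.34 to 0.51) at that time and 0.04 (−0.13 to 0.21) for the mean of the 4.

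Genes with related roles were set beside the ribosomal protein genes. Of 3 ribosomal proteins under other symbols, *sta*, *sop* and *oho23B*, which belong to the small subunit, 1 rose over the whole course in *brat* mutant and 2 in wild-type embryos, and 0 fell. *sta* rose by 0.41 (adjusted p = 0.014) in *brat* mutant and 0.35 (adjusted p = 0.0255) in wild-type embryos, and *oho23B* rose by 0.67 (adjusted p = 0.0134) in wild-type embryos. None of the 3 differed between genotypes at a single time point, and *sta* was lower in *brat* mutant embryos for the mean of the 4 (−0.25, adjusted p = 0.00526), a call that was lost on averaging by replicate number (adjusted p = 0.114).

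Of 15 ribosome assembly genes tested, 4 rose and 1 fell in *brat* mutant embryos over the whole course, beside 20.1% and 29.2% of all tested genes. In wild-type embryos 6 rose and 1 fell, beside 25.6% and 34.9%. The medians were 0.27 and 0.39. With so few genes, the counts are not shown to differ from the shares of all genes. The largest rises of the list in wild-type embryos are named. *Fib*, the methyltransferase of the box C/D small nucleolar RNPs, rose by 1.63 (adjusted p = 0.00107), *NHP2* of the box H/ACA RNPs by 1.30 (adjusted p = 0.000296) and *RpI135*, a subunit of RNA polymerase I, by 1.28 (adjusted p = 0.000185). For *brat* mutant embryos these rises were 1.24 (adjusted p = 0.0117), 0.94 (adjusted p = 0.00645) and 0.92 (adjusted p = 0.00498). The gene that fell was *Nop60B* in *brat* mutant embryos (−0.70, adjusted p = 0.00977) and *Surf6* in wild-type embryos (−0.39, adjusted p = 0.034). None of the 15 differed between genotypes at a single time point. For the mean of the 4 time points 2 were higher in *brat* mutant embryos and 0 lower, beside 16.6% and 19.6% of all tested genes. They were *nop5* (0.36, adjusted p = 0.00133) and *Nop60B* (0.36, adjusted p = 0.0123). On averaging by replicate number *nop5* passed (adjusted p = 0.0477) and *Nop60B* did not (adjusted p = 0.0939).

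Other growth-linked genes, most of them of the translation machinery, and genes of the mitochondrial ribosome were counted as well. Over the whole course the shares of all tested genes were 20.1% rising and 29.2% falling in *brat* mutant and 25.6% and 34.9% in wild-type embryos. Of 9 other growth-linked genes tested, 0 rose and 1 fell in each genotype over the whole course. The 1 was *Nap1*, a histone chaperone gene rather than one of translation. For the mean of the 4 time points *Nap1*, *pAbp* and *Ef1beta* were higher in *brat* mutant embryos and 0 of the 9 lower, beside 16.6% and 19.6% of all tested genes. None of these 3 passed on averaging by replicate number. Of 38 tested mitochondrial ribosomal protein genes, 0 rose and 4 fell in *brat* mutant embryos and 0 rose and 8 fell in wild-type embryos, with median changes of −0.23 and −0.35, beside the medians of −0.15 over all tested genes. Between genotypes 0, 2, 1 and 1 of these 38 were higher and 2, 0, 0 and 1 lower in *brat* mutant embryos at the 4 time points. Of all tested genes 4.98%, 4.17%, 2.18% and 6.33% were higher and 3.95%, 3.56%, 1.47% and 5.71% lower. For the mean of the 4, 7 were higher and 4 lower, beside 16.6% and 19.6% of all tested genes. On averaging by replicate number 5 were higher and 2 lower, beside 10.5% and 10.7%. No difference between these lists and the ribosomal protein genes was tested.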

How the data were processed

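RNA from 24 embryo samples was hybridized to custom NimbleGen arrays, 1 sample in each of 2 dyes per array. The log2 values, 1 per transcript row and sample, were deposited as the authors made them in ArrayStar by RMA and quantile normalization over all samples. The annotation release is not given in the sources used here, nor is the pairing of samples on arrays. Of 17775 rows, 6 had no value. Genes were expressed where limma, one-sided within a group, placed them above the mean of all rows in at least 1 of 8 groups at an FDR of 5%. Groups, replicates and dyes came from the labels.

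Genotypes were compared at each time point by itself, and time points, changes of the genotype difference and paralogue differences in 1 fit of all 24 samples, with limma 3.58.1 in R 4.3.3 and Benjamini-Hochberg adjustment over all tested genes. limma stands in for the study's SAM. The scripts were tested on simulated data. Python 3.11.15 with matplotlib 3.10.9 drew the figures. Named were *RpL32*, duplicated genes, the 8 strongest calls in each direction per time point, the 3 strongest per step and genotype, and the 3 most and least variable genes; others are named as chosen after their values were seen. Members, lists and tests were chosen with earlier results of these data known. *Qm*, the array's symbol for RpL10, was left out because it can be confused with *quemao*. By symbol or synonym, 83 of 84 genes matched RefSeq. Array signals give no counts, so the number of arrays limits the precision. The alternatives were dye as a covariate, a replicate block, centring on the median, limma with trend and robust fit, no or a strict filter, expressed rows only, a 1.5-fold limit, other sample sets per fit, each replicate left out and, chosen after seeing the data, a replicate block across time points.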

Additional observations from a re-analysis of the deposited data

How the results depend on the processing

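Over the single values, 435 of 505 alternative estimates, and 472 of 546 with a replicate left out, kept their direction and their side of the threshold. The median over the tested genes shifted when each sample was centred on it, by −0.13 in *brat* mutant and −0.15 in wild-type embryos in the first step and by −0.17 and −0.19 over the whole course, so that rises relative to the median were larger. At 0–1.5 h and 4.5–6 h the 1 gene higher in *brat* mutant embryos became 0 with the replicate block, with no filter on expression and with dye in the model. The counts of genes lower in *brat* mutant embryos, 0 at each of the 4 time points, became 1, 2, 2 and 1 with limma trend and robust fit and 1, 1, 2 and 1 in 1 fit of all 24 samples, and those higher at 1.5–3 h and 3–4.5 h became 1 and 1 in both. With centring 1 gene was higher at 1.5–3 h, and with the strict filter 1 was lower at 4.5–6 h. For the mean of the 4 time points, centring gave 8 higher and 2 lower, no filter 2 and 2, a 1.5-fold limit 1 and 1, and averaging the samples of a replicate number 1 and 1. In the first step the 9 rises in *brat* mutant embryos became 32 with centring, 20 with trend and robust fit, 1 with no filter, 0 with each pair of time points fitted by itself and 1 with a 1.5-fold limit. The 27 in wild-type embryos became 50 with centring, 13 with no filter, 13 with each pair fitted by itself and 14 with a 1.5-fold limit. The 1 rise in wild-type embryos from 1.5–3 h to 3–4.5 h became 3 with centring, 4 with trend and robust fit, and 0 with no filter, with pairs fitted by themselves and with a 1.5-fold limit. Over the whole course the 26 in *brat* mutant embryos became 55 with centring, 40 with trend and robust fit, 11 with no filter, 9 with pairs fitted by themselves and 7 with a 1.5-fold limit, and the 45 in wild-type embryos became 24 with no filter and 14 with a 1.5-fold limit. The cause of these shifts was not tested. Except for averaging by replicate number, the shares of all tested genes under these fits, and with a replicate left out, are not given. The counts under them therefore cannot be set against those of all genes.

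With 1 replicate left out, the genes higher in *brat* mutant embryos numbered 0 to 1 at 0–1.5 h, 0 to 1 at 4.5–6 h, and 3 to 6 for the mean of the 4 time points. The 3 came from leaving out *brat* mutant replicate 3 at 0–1.5, 1.5–3 or 3–4.5 h, or wild-type replicate 1 at 0–1.5 or 4.5–6 h or replicate 3 at 1.5–3 or 3–4.5 h. The rises of the first step numbered 2 to 16 in *brat* mutant embryos and 12 to 27 in wild-type embryos. They were 2 without *brat* mutant replicate 3 at 1.5–3 h, 3 and 2 without replicates 1 and 2 and 16 without replicate 3 at 0–1.5 h, and 12 without wild-type replicate 2 at 0–1.5 h, 16 and 15 without replicates 1 and 3 at 1.5–3 h. In the next step 0 to 2 rose in wild-type embryos and 0 to 1 fell in *brat* mutant embryos, the 1 without replicate 3 at 1.5–3 h. Over the whole course 12 to 30 rose in *brat* mutant and 24 to 44 in wild-type embryos. At 0–1.5 h the difference of *RpL32* ranged from −0.10 (without *brat* mutant replicate 3 or wild-type replicate 2) to 0.15, and that of *RpL34a* from −0.13 (without wild-type replicate 2; −0.05 without *brat* mutant replicate 1) to 0.15.

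Replicate numbers showed no clear pairing of the genotypes: of 12 same-numbered pairs 2 had a correlation of deviations over 0.1 (−0.09 to 0.17), and 4 correlated best with their own number. Same-numbered samples of the 2 genotypes carried opposite dyes, and the deviations were not corrected for dye, so this check cannot exclude a pairing. Across the time points of a genotype same-numbered samples deviated together, a hint from the data that the labels do not state: in *brat* mutant embryos 5 of 18 pairs were over 0.1 (−0.01 to 0.23) and in wild-type embryos 12 of 18 (0.01 to 0.25), and 17 of 18 in each correlated best with their own number. Pairs with different numbers reached at most 0.04 and 0.05. Same-numbered samples of a genotype also shared a dye, whose part in these correlations was not tested. With this number as a block, chosen after seeing the data, the first-step rises became 18 in *brat* mutant and 33 in wild-type embryos, those of the next step in wild-type embryos 4, and those of the whole course 32 and 49. With the replicate block across genotypes the difference of *RpL7A* had adjusted p = 0.0651 at 0–1.5 h and 0.073 at 4.5–6 h. The planned search for promoter motifs was not run. The 3 replicates per group limit what can be seen, and whether bright signals near the top of the scale do so too was not tested.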
